A study of Mus musculus with 6 samples.

Results

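The expression profile of stressed Min6 cells was read from the 3 Rosa26 gRNA libraries, out of 6 libraries in the series. The libraries were chosen by the guide named in their labels. Min6 is a mouse insulinoma cell line with features of pancreatic beta cells, derived from tumours of mice that carry the SV40 large T antigen under an insulin promoter. The cells were at passage 28 and had received lentiCRISPR v2, a lentiviral vector that carries the Cas9 nuclease together with a guide RNA, here one against the Rosa26 locus, a site that is commonly cut as a control. They were harvested 8 days after transduction, at the end of 30 h in glucolipotoxic conditions (excess glucose together with fatty acid, at concentrations that the labels do not give). Total RNA was sequenced. The other 3 libraries carried a guide against JunD and were not used here. No unstressed library and none without Cas9 was analysed here, so every value below is a level under these conditions and none is a response to them. The labels do not say whether the 3 replicates came from separate transductions, so the spread between them may be technical.

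A beta cell makes proinsulin in the endoplasmic reticulum (ER), folds it with chaperones and disulfide isomerases, and packs it with granins into dense-core granules, where prohormone convertases and carboxypeptidase E cut it to insulin. Glucose enters through low-affinity transporters and its breakdown raises ATP, which closes ATP-sensitive potassium channels and lets calcium trigger release. Misfolded protein in the ER activates the sensors IRE1, PERK and ATF6. PERK and the related kinases feed the integrated stress response, in which ATF4 and CHOP (gene Ddit3) raise genes of amino acid supply.

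The starts of the Ins1 and Iapp genes are shown because these genes held places 3 and 2 of the ranking below. Each sequence is the 250 bases before the start of transcription in RefSeq on GRCm38.p6, for Ins1 chr19:52264047-52264296 and for Iapp chr6:142298175-142298424, both on the plus strand. Capitals mark TAAT, the core recognised by homeodomain factors such as Pdx1, and CATCTG, an E-box form recognised by Neurod1 with its partners, on either strand, so that ATTA is also capitalised. The run ATTAAT of Iapp holds 2 overlapping matches.
Ins1: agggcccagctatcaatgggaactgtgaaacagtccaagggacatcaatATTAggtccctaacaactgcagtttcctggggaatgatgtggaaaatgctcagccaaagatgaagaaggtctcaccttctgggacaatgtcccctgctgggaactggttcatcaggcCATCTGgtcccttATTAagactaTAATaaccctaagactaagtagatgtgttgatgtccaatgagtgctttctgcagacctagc
Iapp: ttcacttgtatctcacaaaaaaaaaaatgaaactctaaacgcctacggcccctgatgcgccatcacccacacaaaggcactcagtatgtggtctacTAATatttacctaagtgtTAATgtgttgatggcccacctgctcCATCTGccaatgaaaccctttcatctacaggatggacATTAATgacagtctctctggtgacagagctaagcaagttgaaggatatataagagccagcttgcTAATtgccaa
Ins1 held 3 TAAT matches and Iapp 5, and CATCTG stood at 1 place in each. TAAT was found in 54.9% of the 32851 RefSeq windows of this length and CATCTG in 14.4%. Counted by gene, TAAT stood in 15799 of 27025 genes and CATCTG in 4409. Of the 24 genes of the hormone list with a window, 16 (66.7%) held TAAT and 10 (41.7%) held CATCTG. A match of these letters is a description of the sequence and not a binding site.

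The libraries held 43408459, 50024931 and 47834207 counts in replicates 1, 2 and 3. Counts were scaled to the library total (CPM, counts-per-million) and, to compare genes, also by exonic length (TPM, transcripts-per-million). Replicate 1 stood apart. Over the 14370 genes with at least 1 TPM in every library, the median absolute log2 ratio of TPM was 0.291 between replicates 1 and 2, 0.294 between 1 and 3, and 0.073 between 2 and 3. Values are therefore given in the order replicate 1, 2, 3, and the difference of replicate 1 is described at the end.

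Of 46544 genes with at least 200 exonic bases, 14370 (30.9%) reached 1 TPM in each of the 3 libraries. Among 21777 nuclear protein-coding genes the number was 11938 (54.8%). Their levels differed widely, and 998 protein-coding genes reached 100 TPM in each library and 45 reached 1000 TPM. The median expressed gene stood at a mean of 18.1 TPM. At the other end, 4944 protein-coding genes (22.7%) had no count in any library and 6414 stayed under 0.1 TPM in each.

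**Figure D1:**
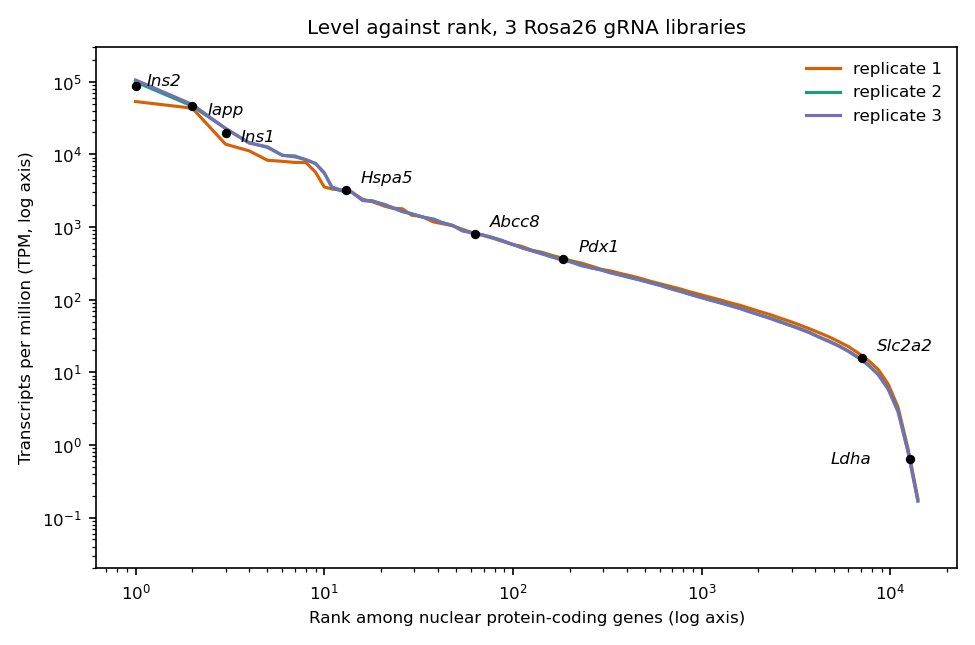
Level in TPM (log axis) against rank among nuclear protein-coding genes (log axis) in each of the 3 Rosa26 gRNA libraries. Black points are mean levels of 8 named genes. The lines of replicates 2 and 3 overlie each other, and the line of replicate 1 starts lower, with Ins2 at 53294 TPM against 99358 and 105634.

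The profile was led by secreted peptides. Ins2, the insulin gene that mice share with other mammals, stood at 53294, 99358 and 105634 TPM. Iapp, which encodes islet amyloid polypeptide that is released with insulin, stood at 43133, 46148 and 48594 TPM. Ins1, the second mouse insulin gene, stood at 13777, 22684 and 22728 TPM. The order Ins2, Iapp, Ins1 was the same in the 3 libraries, and replicate 1 was the lowest for each of them. As counts, the insulin genes together took 2.65%, 5.44% and 5.77% of the library (mean 4.62% ± 1.71, SD, n = 3). Iapp took 1.32%, 1.58% and 1.68%. Pdx1, the homeodomain factor that marks beta cells, was at 409, 345 and 321 TPM and at place 185 by its mean. All 4 markers of the cell type were thus present in every library.

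The ratio of Ins2 to Ins1 was 4.78, 5.41 and 5.74 in CPM and 3.87, 4.38 and 4.65 in TPM. The TPM rests on the length given to each gene. The exons of Ins2 cover 1312 bases in the annotation, while its longest transcript is 918 bases, and for Ins1 both are 1062 bases. The share of summed TPM held by the insulin genes was 6.71%, 12.2% and 12.8%, and with Iapp it was 11.0%, 16.8% and 17.7%.

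The counts were concentrated in few genes. The 10 genes with the most counts held 8.58%, 12.5% and 12.9% of each library, and the top 100 held 23%, 25.7% and 26.3%. It took 986, 902 and 877 genes to reach 50% of the counts. Protein-coding genes held 94.0% to 95.1%.

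After the insulin genes and Iapp, the 25 highest nuclear protein-coding genes by mean TPM were Chga, Cck, Chgb, Scg2, Ttr, Cpe, Npy, Pdyn, Scg3, Hspa5, P4hb, Calr, Eef2, G6pc2, Vgf, Ddost, Psap, Ptprn, Eef1a1, Pdia6, Hsp90ab1 and Bsg. Most of them make or handle secreted protein: hormones and neuropeptides (Cck, Npy, Pdyn), granins (Chga, Chgb, Scg2, Scg3, Vgf), the carboxypeptidase Cpe, the granule membrane protein Ptprn, and the folding proteins Hspa5, P4hb, Calr and Pdia6. Ddost belongs to the complex that adds sugar chains in the ER, Psap is a lysosomal precursor, and Bsg accompanies monocarboxylate transporters to the cell surface. Eef2, Eef1a1 and Hsp90ab1, of translation and cytosolic folding, are the general genes among them. Of these 25 genes, 23 were among the top 25 of each library, and replicates 2 and 3 had the same 25. The exact order was less firm. Of the 24 neighbouring pairs in the list, 9 stood in the order of the list in all 3 libraries. In both replicates 2 and 3, 17 stood in that order. Scg2 and Ttr, Hspa5 and P4hb, G6pc2 and Vgf, Psap and Ptprn, Eef1a1 and Pdia6, and Hsp90ab1 and Bsg were reversed in both. Only Eef2 and G6pc2 stood in a different order in replicate 2 than in replicate 3. Hspa5 and P4hb, for example, changed places between replicate 1 and the others, as did Eef1a1 and Pdia6, and so do not differ beyond their spread.

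Hormones of other endocrine cells were present beside insulin. Cck, which encodes cholecystokinin of the gut and brain, stood at 7734, 12464 and 12701 TPM, close to the granins. Npy, a neuropeptide, stood at 2825, 5586 and 5520 TPM. Gcg, the glucagon precursor of alpha cells, stood at 1115, 1281 and 1296 TPM. Cck was above Npy, and Npy above Gcg, in each library. Sct (secretin) reached 368, 640.1 and 649 TPM, and Ucn3, a urocortin that marks mature beta cells in mice, 193, 276 and 289.8 TPM. Ppy, the pancreatic polypeptide gene, was lower at 64.3, 161 and 157 TPM. Sst, the somatostatin gene of delta cells, was at 9.47, 24.9 and 27.7 TPM. In every library the islet hormones other than insulin and Iapp thus kept the order Gcg, Ppy, Sst, with Pyy at 3.61 to 5.31 TPM and Ghrl under 1 TPM below them. Of the 26 hormone genes listed, 21 reached 1 TPM in each library, against 54.8% of all nuclear protein-coding genes. Vip and Nmu had no count in any library. In such bulk libraries many cells with little of a message and few cells with much of it cannot be told apart.

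**Figure D2:**
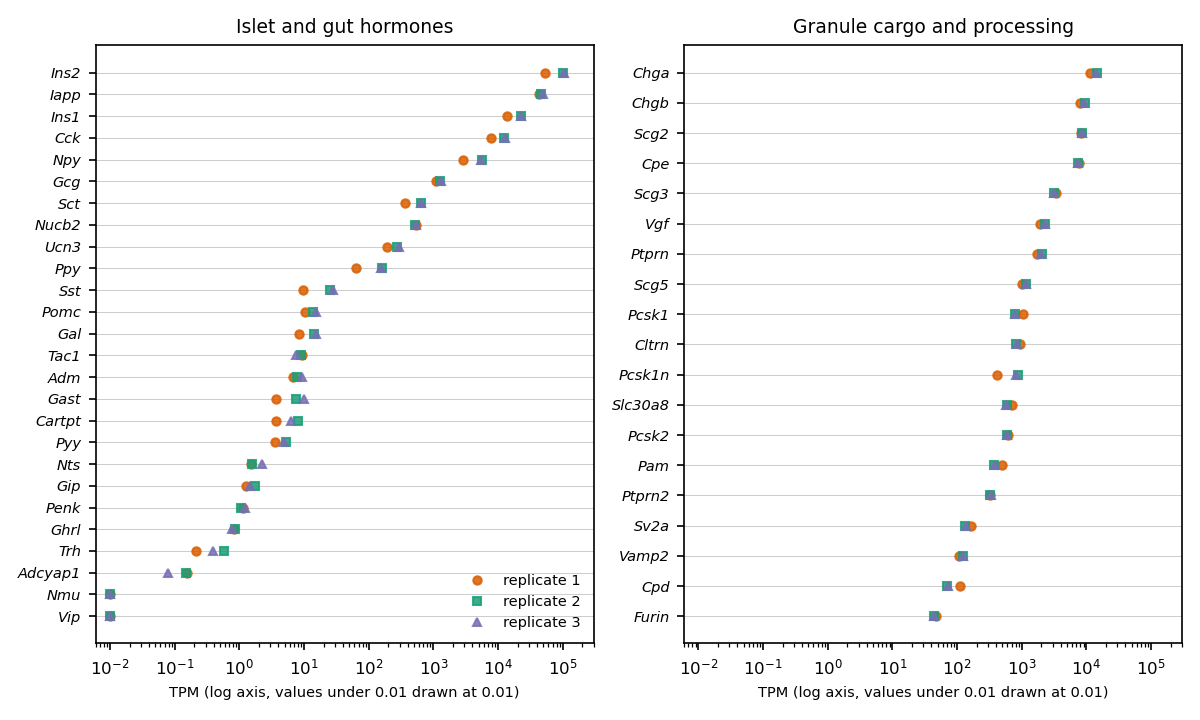
Level in TPM (log axis) of the 26 hormone genes and the 19 granule genes, ordered by mean level, with 1 symbol per Rosa26 gRNA library. Hormone levels run from none (Vip, Nmu) to 105634 TPM (Ins2), and granule genes from 43.3 TPM (Furin, replicate 3) to 14468 TPM (Chga, replicate 2).

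All 19 genes of granule cargo and prohormone processing reached 1 TPM in every library, against 54.8% of all nuclear protein-coding genes. At 100 TPM there were 17, against 998 of all 21777 nuclear protein-coding genes. The median of the 19 was 855 TPM, at percentile 99.2 of the expressed genes. Together they took 4.49%, 5.47% and 5.45% of the counts. Chga (chromogranin A), a granin that helps condense granule cargo, led with 11164, 14468 and 14262 TPM. Chgb stood at 8004, 9491 and 9210 TPM and Scg2 at 8290, 8406 and 8458 TPM, so the 2 changed places in replicate 1. Cpe, which trims basic residues after cleavage, was steady at 7715, 7487 and 7417 TPM. Pcsk1, the convertase PC1/3, stood at 1041, 778 and 791 TPM and Pcsk2, the convertase PC2, at 608, 587 and 584 TPM. Pcsk1 was above Pcsk2 per length in each library. Per count their ratio was 1.21, 0.939 and 0.959, with neither above in all 3. Their binding partners Pcsk1n (proSAAS) and Scg5 (7B2) were at 406, 864 and 824 TPM and at 997, 1142 and 1144 TPM. Slc30a8, the zinc carrier of insulin granules, was at 699, 581 and 575 TPM. Furin, the convertase of the general secretory route, was lowest of the list at 43.3 to 47.8 TPM.

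The release machinery was lower than the cargo. Of 35 exocytosis genes, 34 reached 1 TPM in every library (against 54.8% of all nuclear protein-coding genes), with a median of 53.8 TPM. Syt13, a synaptotagmin-family membrane protein, stood far above the rest at 982, 937 and 944 TPM and held 55.1%, 60.3% and 60.2% of the summed TPM of 17 synaptotagmins. Syt4 followed at 392, 238 and 249 TPM. Syt7, a calcium sensor for insulin release, stood at 80.1 to 90.9 TPM and Syt1, the fast sensor of neurons, at 6.72 to 7.25 TPM. Among the plasma membrane syntaxins Stx4a (44.2 to 50.1 TPM) was above Stx1a (24.2, 35.4 and 32.5 TPM) per length, while per count Stx3 led. Snap25 (99.2, 77.7 and 77.7 TPM) was above Snap23 (34.5, 27.2 and 26.7 TPM).

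In the glucose-sensing list, 28 of 38 genes reached 1 TPM in each library, against 54.8% of all nuclear protein-coding genes. The highest was G6pc2, the islet glucose-6-phosphatase subunit, at 2231, 2244 and 2292 TPM. The low-affinity transporter Slc2a2 was at 19.4, 14.3 and 13.5 TPM and the ubiquitous transporter Slc2a1 at 30.8, 29.8 and 30.5 TPM. Slc2a1 was thus above Slc2a2 per length in each library. Per count the ratio of Slc2a1 to Slc2a2 was 0.969, 1.27 and 1.38, and neither led in all 3. Hk1, the ubiquitous hexokinase, was near 1 TPM (1.10, 0.944 and 1.24), and Hk2 and Hk3 stayed under 0.1 TPM.

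Both parts of the ATP-sensitive potassium channel were expressed. Abcc8, the sulfonylurea receptor SUR1, stood at 776, 799.6 and 795 TPM, and Kcnj11, the pore Kir6.2, at 159.9, 169.5 and 165 TPM. Their relatives Abcc9 and Kcnj8 of muscle and vessels stayed under 0.4 TPM. The calcium pumps of the ER, Atp2a2 and Atp2a3, were both high. Atp2a2 was above Atp2a3 in replicate 1 (1200.5 against 883 TPM) and below it in replicates 2 and 3, so neither led. Of the calcium channel pores, the T-type Cacna1h (54.3, 50.5 and 48.1 TPM) was above the L-type pores Cacna1c (16.6, 13.7 and 13.9 TPM) and Cacna1d (16.5, 11.9 and 13.6 TPM). Kcnq1, a potassium channel gene, had no count. Among receptors that tune secretion, the fatty acid receptor Ffar1 stood at 346, 281 and 273 TPM, the adrenergic receptor Adra2a at 183 to 184 TPM, and the incretin receptors Glp1r and Gipr at 75.7 to 85.2 and 45.3 to 55.9 TPM.

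Metabolic genes lay below the granule and ER folding genes in their medians. Of 40 genes of glycolysis and pyruvate use, 35 reached 1 TPM in each library, against 54.8% of all nuclear protein-coding genes. The median of the 40 was 14.9 TPM. The median of the 38 TCA cycle and shuttle genes was 77.7 TPM and that of the 44 nuclear respiratory chain genes 112 TPM. Sequence sharing, defined below, differed between the lists. At least 20% of a gene's runs of 50 bases occurred in other genes for 11, 4 and 10 genes of these 3 lists. Among the glycolytic enzymes the number was 7 of 17, and in the granule and ER folding lists it was 0. The part of sharing in these medians was not tested. Among glycolytic enzymes Pkm (442, 403 and 387 TPM), Aldoa (345, 382 and 358 TPM) and Tpi1 (172, 199 and 198 TPM) were highest. Ldha, which encodes the lactate dehydrogenase that beta cells are known to keep low, stood at 0.865, 0.549 and 0.517 TPM. The monocarboxylate carrier Slc16a1, another gene known to be kept low in beta cells, was at 10.4, 6.999 and 8.01 TPM. Pyruvate carboxylase (Pcx), which feeds pyruvate into the TCA cycle, was at 93.9, 82.1 and 82.7 TPM. Acly, the cytosolic enzyme that turns citrate into acetyl-CoA, led its list with 1814, 1583 and 1526 TPM. Txnip, the glucose-responsive thioredoxin inhibitor, stood at 94.1, 92.4 and 86.8 TPM.

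Lipid genes were uneven. On the side of synthesis Scd2, a desaturase, reached 1446, 1193 and 1223 TPM and held 82.7% to 83.4% of the summed TPM of 4 desaturases. Fasn, the fatty acid synthase, was at 175, 155 and 155 TPM. The median of the 12 synthesis genes was 173 TPM, that of the 16 storage and release genes 10.3 TPM and that of the 27 oxidation genes 12.9 TPM. Cpt1a, which controls entry of fatty acids into mitochondria, stood at 60.1, 51.6 and 51.5 TPM. Plin2, the lipid droplet coat protein, was at 17.5, 19.7 and 19.0 TPM, and the other 4 perilipins stayed under 1 TPM. The fatty acid importer Cd36 was under 0.3 TPM in each library, and Fabp1, a fatty acid binding protein, had no count.

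The genes of ER folding stood near the top of the profile. Of 37 genes, 36 reached 1 TPM in each library, against 54.8% of all nuclear protein-coding genes. At 100 TPM there were 28, against 998 of all 21777 nuclear protein-coding genes. All 37 had a median of 222 TPM at percentile 96.2 of the expressed genes. They took 3.00%, 2.87% and 2.92% of the counts, a share that varied less than that of insulin. Hspa5, the ER chaperone BiP, stood at 3555, 3006 and 3039 TPM. Calr, the lectin chaperone calreticulin, stood at 2996, 2689 and 2697 TPM and Hsp90b1, the ER member of the HSP90 family, at 2017, 1357 and 1391 TPM. The disulfide isomerases P4hb and Pdia6 were at 3267, 3009 and 3074 TPM and at 1948, 1877 and 1903 TPM. Ero1lb, the oxidase found in the pancreas, was above the general form Ero1l and held 90.7% to 91.7% of their sum. The sensors and their factors were lower, with Xbp1 at 239, 235 and 226 TPM, Ern1 (IRE1) at 216, 187 and 189 TPM, Atf6 at 93.5, 70.0 and 70.2 TPM, and Eif2ak3 (PERK) at 78.6, 68.5 and 67.9 TPM. Ern2, the IRE1 form of the gut, was under 0.5 TPM in each library.

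Some promoters of this list hold a known element. The ER stress response element, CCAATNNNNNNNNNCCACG with N for any base, is known to be read by NF-Y together with ATF6. It was searched on both strands of the same RefSeq windows. The element stood in 37 of 32851 windows (0.113%), those of 35 genes among 27025. Of the 29 ER folding genes with a window, 9 (31.0%) held it: Calr, Canx, Creld2, Derl3, Dnajc3, Hsp90b1, Hspa5, Pdia6 and Syvn1. These 9 are not alike in level, since Hspa5 had a mean of 3200 TPM and Derl3, a factor of ER degradation, 31.8 to 48.4 TPM. The matches of the 5 holders with the highest levels are printed with 10 bases on each side, on the strand that reads the element as spelled and with its fixed letters in capitals. Hsp90b1 held 2 matches, on opposite strands.
Hspa5, chr2:34772015-34772053, plus strand: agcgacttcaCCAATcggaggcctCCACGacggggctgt
Calr, chr8:84847065-84847103, plus strand: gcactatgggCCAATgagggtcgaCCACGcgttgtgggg
Pdia6, chr12:17266481-17266519, plus strand: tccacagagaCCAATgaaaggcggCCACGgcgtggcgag
Hsp90b1, chr10:86705628-86705666, minus strand: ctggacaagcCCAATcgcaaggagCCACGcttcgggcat
Hsp90b1, chr10:86705523-86705561, plus strand: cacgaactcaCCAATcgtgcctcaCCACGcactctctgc
Canx, chr11:50325790-50325828, minus strand: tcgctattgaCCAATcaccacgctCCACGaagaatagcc
The edge of the match nearer to the start lay 47 bases upstream in Hspa5, 80 in Pdia6, 127 in Canx and 144 in Calr. In the granule list 3 of 15 genes with a window, Chgb, Pcsk1 and Scg2, held the cyclic AMP response element TGACGTCA. That element stood in 1.55% of all windows and, counted by gene, in 478 of 27025 genes. In the integrated stress response list 6 of 26, Atf3, Chac1, Fgf21, Nupr1, Slc7a11 and Vldlr, held TTGCATCA, a form of the element read by ATF4 with CEBP partners. TTGCATCA stood in 0.791% of all windows and, counted by gene, in 248 of 27025 genes.

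The genes of the integrated stress response were also expressed, with a median of 112 TPM. Of 30, 29 were at 1 TPM or more in each library, against 54.8% of all nuclear protein-coding genes. Atf4 stood at 429, 541 and 533 TPM. Ddit3, which encodes CHOP, stood at 106, 116 and 111 TPM and Trib3, its pseudokinase target, at 118, 113 and 107 TPM. Chac1, which degrades glutathione, was at 147, 175 and 176 TPM. On the side of amino acid supply the transporter Slc7a5 (575, 523 and 510 TPM) and asparagine synthetase Asns (398, 345 and 340 TPM) were highest. The secreted stress factors Gdf15 (1.07, 1.38 and 1.27 TPM) and Fgf21 (0.695, 2.27 and 2.48 TPM) were the lowest of the list.

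Other stress groups were lower. The median was 66.0 TPM for 17 heat shock chaperones and 55 TPM for 37 antioxidant genes. Of these, 8 heat shock and 8 antioxidant genes share at least 20% of their runs of 50 bases with other genes. In the ER folding list the number was 0 of 37, in the inflammatory list 2 of 36 and in the death list 0 of 20. The part of sharing in these medians was not tested. Catalase (Cat), a peroxide-removing enzyme known to be scarce in beta cells, was at 1.60, 1.02 and 1.49 TPM, whereas Gpx1, a glutathione peroxidase, stood at 149.7, 173 and 162 TPM. Mt1, a metallothionein that binds zinc, was at 257 TPM in replicate 1 and at 580.3 and 579 TPM in the others. Of 36 inflammatory genes 26 reached 1 TPM in each library (against 54.8% of all nuclear protein-coding genes), with a median of 7.21 TPM. Il1r1, the interleukin-1 receptor, was the highest of them at 527, 384 and 389.7 TPM. The cytokines themselves were low: Il1b at 2.96, 2.23 and 0.835 TPM, Tnf at 1.254, 0.623 and 0.216 TPM, and Il6 under 0.1 TPM. In the death list Mcl1 (162, 129.8 and 120.2 TPM), a survival factor, was highest, Bax stood at 61.8, 95.1 and 94.8 TPM, and Casp12 had no count.

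**Figure D3:**
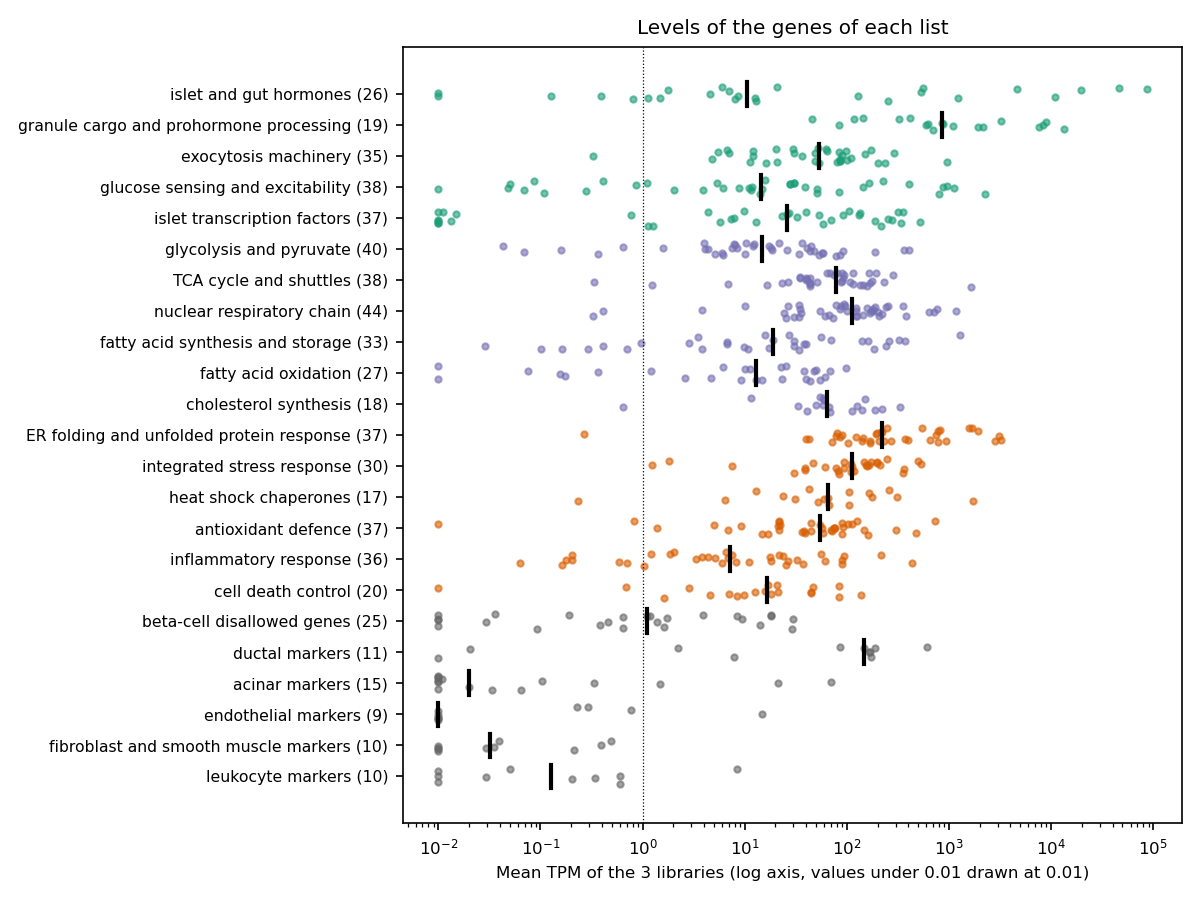
Mean TPM over the 3 libraries (log axis) of every gene of 23 lists, with the number of genes in parentheses. Each point is a gene, black bars are list medians and the dotted line is 1 TPM. The granule list has a median of 855 TPM, the ER folding list of 222 TPM, and the acinar, endothelial, fibroblast and leukocyte lists lie under 0.2 TPM.

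Transcription factors of beta cells were nearly all present. Of 23 listed, 21 reached 1 TPM in each library (against 54.8% of all nuclear protein-coding genes), with a median of 92.2 TPM. Insm1 (493, 553 and 516 TPM), Pdx1, Nkx6-1 (387, 318 and 307 TPM) and Neurod1 (340.2, 258 and 241 TPM) were among the highest. Mafa, the insulin gene activator of mature beta cells, stood at 199.6, 228 and 214 TPM. Of the 14 factors of other islet cells or progenitors, 6 reached 1 TPM in each library, against the same 54.8% of all nuclear protein-coding genes. Hhex of delta cells had counts in 1 library, under 0.1 TPM, although Sst was expressed. Sox9, Neurog3, Ptf1a and Onecut1 had no count.

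Markers of acinar, endothelial, stromal and blood cells were mostly under 1 TPM. Of 25 genes known to be kept off in beta cells, 11 reached 1 TPM in each library, against 54.8% of all nuclear protein-coding genes, and the highest, Oat, was at 27.9 to 31.6 TPM. Mgst1, Lox and Itih5 had no count, and Yap1 and Pdgfra stayed under 0.1 TPM. None of 10 fibroblast and smooth muscle markers reached 1 TPM, and their summed level was 0.865, 1.45 and 1.28 TPM, with Acta2, Col3a1, Lum and Postn at 0. For 9 endothelial markers the number was 1 (Esam, 12.8 to 16.2 TPM), with Kdr, Cdh5 and Tie1 at 0. For 10 leukocyte markers it was 1 (Cd68, 6.85 to 9.69 TPM), with Ptprc, Adgre1 and Cd3e at 0. For 15 acinar markers it was 2, among them the transcription factor Bhlha15 (77.4, 69.5 and 63.6 TPM), while Cpa1, Cpb1 and Prss1 had no count. Prss1 shares sequence with other genes.

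Ductal markers were different. Of 11, 9 reached 1 TPM in each library, against 54.8% of all nuclear protein-coding genes. The osteopontin gene Spp1 stood at 554, 640.2 and 649 TPM, and the keratin genes Krt7, Krt8, Krt18 and Krt19 between 81.7 and 177 TPM. The duct factor Sox9 and the chloride channel Cftr were at 0 or under 0.1 TPM. The monoamine genes Ddc (254, 217 and 214 TPM) and Th (129.9, 151 and 149 TPM), which make dopamine, were expressed, and Tph1, which makes serotonin, stood at 13.2 to 14.4 TPM. Genes of the cell cycle were expressed, with the proliferation marker Mki67 at 387, 236 and 235 TPM and the replication gene Mcm5 at 200.2, 159 and 154 TPM. Ccnd2 held 79.2%, 70.7% and 70.2% of the summed TPM of the D-type cyclins. The cell cycle inhibitors Cdkn2c (382, 368 and 356 TPM) and Cdkn2a (263, 255.7 and 221 TPM) were high as well.

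Some genes with low values here are not low in cells in general, and the examples in this paragraph share sequence with other annotated genes. For each gene the share of its distinct runs of 50 bases that also occur exactly in a transcript of another annotated gene was computed. Of 12338 protein-coding genes with under 1% of shared runs, 59.5% reached 1 TPM in each library. Of 1249 genes with 80% or more, 11.8% did. Gapdh, a glycolytic enzyme widely used as a reference gene, was at 3.85, 3.87 and 4.51 TPM, with 82.5% of its runs found in 222 other genes. Ppia, another reference gene, was at 7.57, 6.70 and 6.66 TPM, with 38.8% shared. Rpl24, of the large ribosomal subunit, stood at 0.110 to 0.214 TPM with 81.7% shared. Shared runs also stood beside high values. Tpt1-ps3, a processed pseudogene of the translation factor Tpt1, stood at 4032, 3378 and 3357 TPM with 100% shared. Tpt1 itself was at 97.3, 76.6 and 79.4 TPM with 42.0% shared. The labels and files do not say how reads that match several places were counted, and its part in these levels was not tested. The low values of such genes, and the high values of such pseudogenes, are given as counted. Without that test they cannot be read as levels of the gene.

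The mitochondrial messages showed the same split. The 13 together took 2.13%, 1.70% and 1.76% of the counts. mt-Co1, of complex IV, stood at 14803, 12653 and 12921 TPM and mt-Cytb, of complex III, at 9653, 7372 and 7690 TPM. mt-Co2 and mt-Co3, of the same complex IV, stood at 0.322, 1.41 and 0.862 TPM and at 7.96, 4.92 and 5.19 TPM, and 100% and 99.9% of their runs occur in another gene. For mt-Co1 the share was 51.1% and for mt-Cytb 0%. mt-Atp8 was the exception in this search, with 0% shared and no count in replicates 1 and 2. It is the shortest of the 13 at 204 bases, and 21.1% of it overlaps another gene. The search covered annotated transcripts only, so copies of mt-Atp8 elsewhere in the genome were not looked for.

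**Figure D4:**
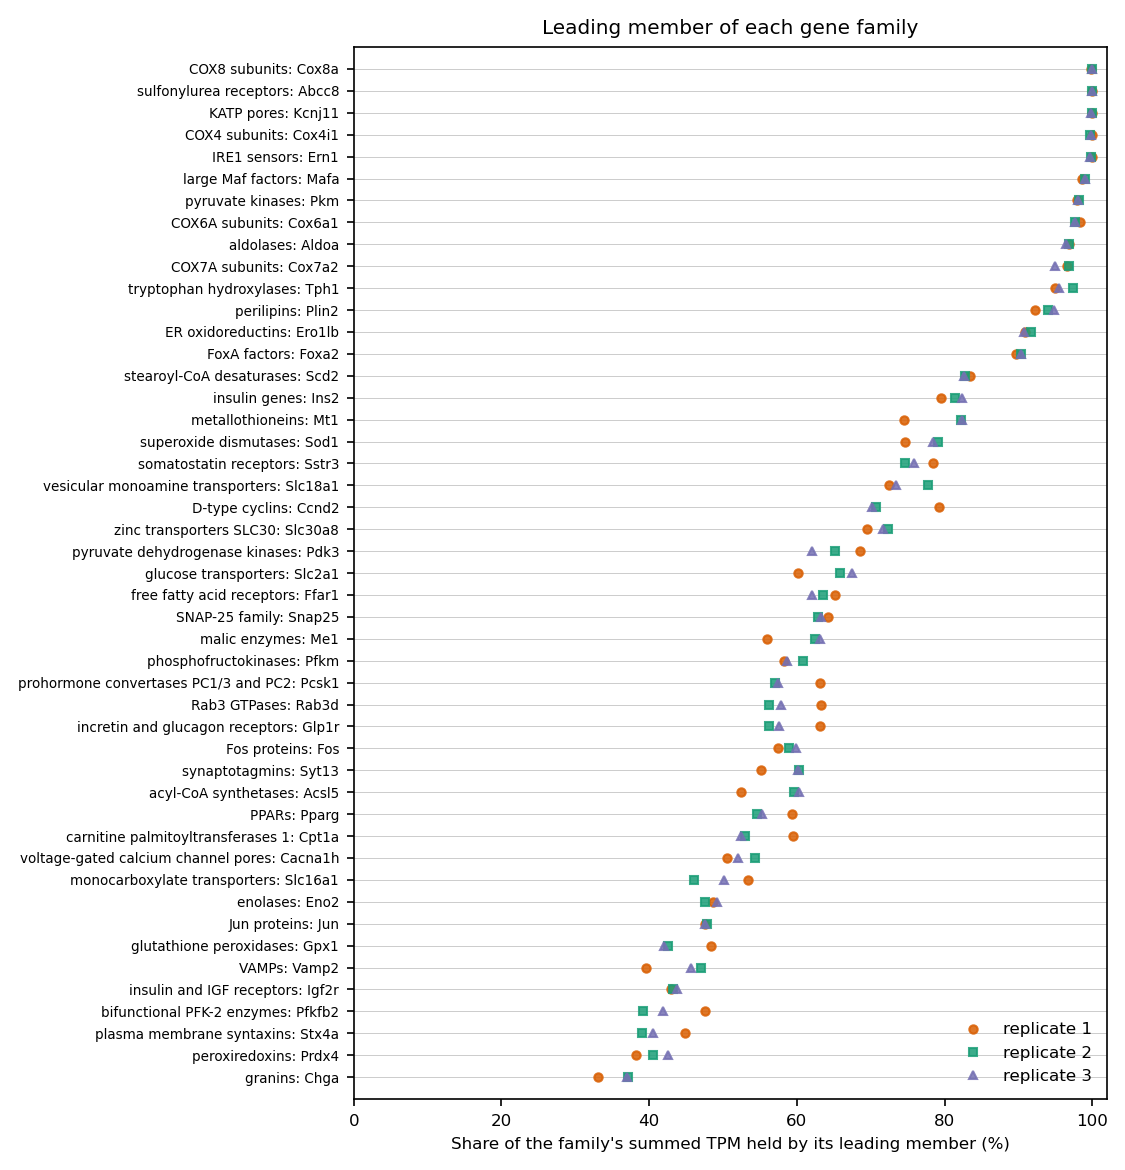
Share of the family's summed TPM (%) held by its leading member in each of the 3 libraries, for 47 of the 48 gene families with the same leader in every library. Shares run from 33.1% (Chga among granins, replicate 1) to 100% (Kcnj11 and Abcc8), and the libraries lie close together in most rows.

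Within gene families the leading member was stable. Of 50 families, 48 had the same member on top in all 3 libraries. In 38 of them the leader held at least 50% of the family's TPM in each library, and in 13 at least 90%. Those 13 hold the channel parts Abcc8 and Kcnj11, the sensor Ern1, the factor Mafa, the enzymes Pkm, Aldoa, Tph1 and Ero1lb, the droplet protein Plin2, and the respiratory subunits Cox4i1, Cox6a1, Cox7a2 and Cox8a. The families without a stable leader were the lactate dehydrogenases, where Ldhb and Ldhd were both near 7 TPM, and the ER calcium pumps. Jun (169, 159.5 and 148 TPM) led the Jun proteins, with Junb at 112, 115 and 111 TPM and Jund at 75.1, 58.7 and 51.4 TPM. Jund shares 48% of its runs with other genes.

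Among non-coding genes of at least 200 bases, pseudogenes left aside, Gm42418, annotated as a long non-coding RNA, had the highest mean TPM. This came through replicate 1 alone, with 4472 TPM there and 143 and 201 TPM in replicates 2 and 3. In those 2 libraries Gm42047, another long non-coding RNA, led at 645 and 637 TPM, with 709.5 TPM in replicate 1. Of the exonic bases of Gm42418, 99.5% overlap those of other genes, and most of its runs of 50 bases also occur in other genes. Its counts thus cannot be read as the level of a separate RNA. Malat1, a nuclear RNA, stood at 979.5, 465 and 487 TPM. The transcript of the targeted site, Gt(ROSA)26Sor, was at 30.2, 16.7 and 12.1 TPM. The cut site lies in this locus. No library without the guide was set beside it here, so this value checks nothing.

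Replicate 1 differed from the other libraries in a graded way. With TPM, 533 of 15219 genes (3.5%) with a mean of at least 1 TPM were at least 2-fold higher in replicate 1 than the mean of replicates 2 and 3, and 197 (1.29%) at least 2-fold lower. The median log2 ratio was 0.20, so genes that kept their place lie above 0 on this scale. With edgeR's TMM scaling the counts were 311 higher and 339 lower. The ratio moved with base composition, taken as the GC content of each gene's longest transcript. The median ratio was 1.41 for the 3867 genes under 45% GC, 1.14 for the 7975 genes from 45% to 55%, and 0.964 for the 3377 genes at 55% or more. Across genes, Spearman's rho of the ratio with GC content was -0.525, and 0.0856 for the ratio of replicate 2 to replicate 3. With exonic length rho was 0.276, and -0.00511 for the ratio of replicate 2 to replicate 3. Genes are not independent replicates, so this is a description.

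**Figure D5:**
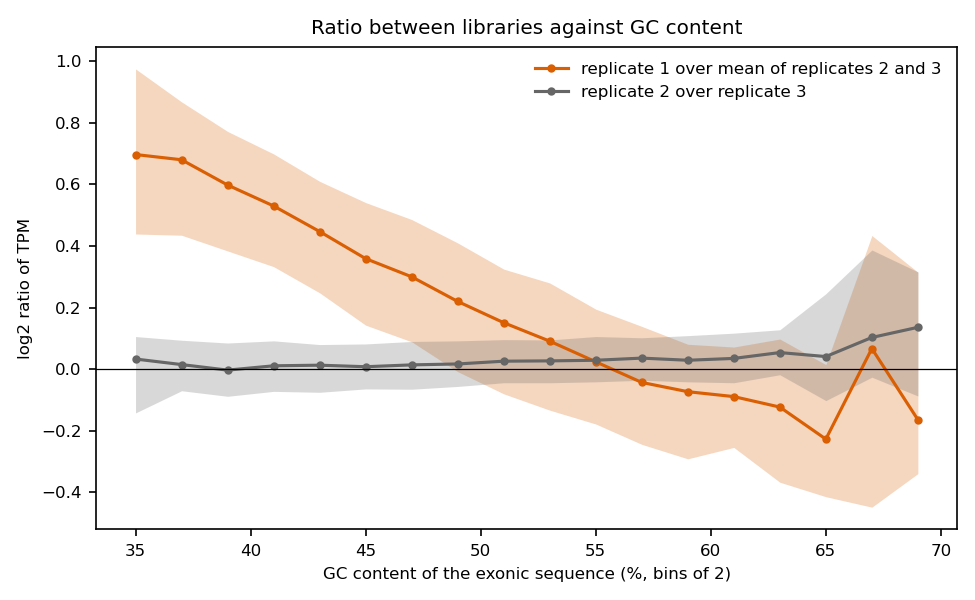
Log2 ratio of TPM between libraries against GC content of each gene's longest transcript, named exonic sequence on the axis (%, bins of 2, each of at least 20 genes). Lines are medians and bands run from the first to the third quartile of genes with a mean of at least 1 TPM. The ratio of replicate 1 to the mean of replicates 2 and 3 falls from 0.697 at 34% to 36% GC to -0.227 at 64% to 66%. In the last bins it is 0.067 at 66% to 68% (26 genes) and -0.164 at 68% to 70% (21 genes). The ratio of replicate 2 to replicate 3 stays between -0.003 and 0.054 up to 66%.

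Among protein-coding genes with a mean of at least 10 TPM the highest ratio, 25.6, was that of Lars2, a mitochondrial leucyl-tRNA synthetase gene, at 961 TPM in replicate 1 and at 35.2 and 39.8 TPM in the others. That of Gm42418 was 25.99. Whether the reads counted for Lars2 or Gm42418 in replicate 1 came from the named gene was not tested. The mitochondrial ribosomal RNAs, which took 0.438%, 0.117% and 0.130% of the counts, were high in replicate 1 as well. Hist1h4h, mt-Nd3, Cep290, Ube3a, Ramac, BC005561, Thoc2, Arhgap5 and Lcor were the other protein-coding genes with the highest ratios at a mean of at least 10 TPM, from 3.17 down to 2.02. On the low side stood the hormones Sst (ratio 0.360) and Ppy (0.404), with Ifitm2, Mt1, Atp5k, Pcsk1n, Crip1, Vkorc1 and Cox6a2 up to 0.5001. Ins2, at 0.520, lay just outside the 2-fold limit. Of the 21 hormone genes that had a ratio, 19 were below 1 and 3 were at least 2-fold lower (Sst, Ppy and Gast). Of the 14370 expressed genes, 4274 were below 1 and 77 at least 2-fold lower. The GC content of the longest transcript had a median of 53.0% in the hormone list against 49.7% for all expressed genes. The hormone levels, base composition, gene length and ribosomal RNA moved together in this library, and the part of each in the others was not tested.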

How the data were processed

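RNA of the 3 Rosa26 gRNA cultures was measured by sequencing. The values deposited by the authors are whole-number counts per Ensembl gene identifier, with no normalization. Per the submitters' processing notes, TopHat2, featureCounts and mm10 were used, but neither their settings nor the handling of strand and of reads with several places is described. The files hold 53379 identifiers, of which 53274 matched GENCODE M21 on GRCm38. The unmatched 105 held 0.0162% to 0.0177% of the counts.

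CPM is a gene's count scaled to the library total. TPM divides the count by the gene's exonic bases and scales over the genes of at least 200 bases, a limit set after the data were seen, because genes of under 200 bases held 0.63% of the counts in replicate 1 and 0.14% in the others. A gene was called expressed at 1 TPM or more in each of the 3 libraries, and 1 gene was called above another where its TPM was higher in each. Totals of 43408459 to 50024931 counts give 0.0600 to 0.0691 CPM for the 3 counts that a value of 0 allows, for counting error only. The 34 gene lists (738 genes), the 50 families and the motifs were chosen with earlier results of these data known. Named genes are the 4 markers, the 25 highest protein-coding genes, the highest non-coding genes, the highest and lowest of each list, family leaders and runners-up, and the 10 protein-coding genes each way with the largest replicate 1 ratio. For each such group the text names the leading and lowest members and those with a known role. Some genes of these lists are not reported here. No groups were compared and no test was run. The level and ratio steps were tested on simulated counts. Software was Python 3.11.15, R 4.3.3 and edgeR 4.0.16 (TMM factors 1.023, 0.991 and 0.986). The sequences are those of RefSeq on GRCm38.p6. Ins2 had no window among them. Alternatives were other thresholds, lengths, denominators and scalings, and leaving out each library.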

Additional observations from a re-analysis of the deposited data

How the results depend on the processing

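No paired analysis was possible because only the Rosa26 gRNA libraries were used and no groups were compared. The number of expressed genes stayed between 13041 and 15649 over thresholds of 0.5 and 2 TPM, 1 CPM, the longest transcript as length and TPM over all genes, and was 11727 without genes of shared sequence. Without each library in turn it ran from 14587 to 14643, the identifiers with no count from 27060 to 27631, the insulin share of counts from 4.05% (without replicate 3) to 5.61% (without replicate 1), the mitochondrial share from 1.73% to 1.94%, and the genes that hold 50% of the mean counts from 890 to 955. The insulin share was 10.58% as a share of TPM.

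The count of genes that differed in replicate 1 depended on the setting. Genes at least 2-fold higher numbered 533, and 311 with TMM scaling, 230 with TPM over all genes, 349 with CPM, 34 among genes of at least 10 TPM, 1593 with no filter on level and 2362 at 1.5-fold. Genes lower numbered 197, and then 339, 480, 294, 12, 903 and 570. The share of higher genes thus moved from most to a minority with the scaling. The settings TPM over all genes, CPM and the removal of shared sequence were chosen after the data were seen. Against replicate 2 or 3 alone the numbers were 588 to 629 and 206 to 229.

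A leader in every library used was found in 44 to 49 of the 50 families over the lengths and libraries tried, and in 35 of the 36 families that have no member of shared sequence. The leader was the same gene in 42 families with the longest transcript as length and in 41 with CPM. Both settings changed or removed it for the convertases Pcsk1 and Pcsk2, the malic enzymes, the PPARs and the insulin and IGF receptors. The longest transcript also removed it for the enolases and the monocarboxylate transporters. CPM also removed it for the glucose transporters, changed it to Stx3 for the syntaxins and to Fosl2 for the Fos proteins, and gave one to the lactate dehydrogenases (Ldhd) and the ER calcium pumps (Atp2a2). Of 272 recomputed counts of expressed list genes, 265 stayed within 1.5 times and 7 moved, most in marker lists with few expressed genes. Depth limits the near-absent genes: up to 10 counts over the 3 libraries, 32702 identifiers would be called near-absent in place of 26090.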

Other observations

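Several groups outside the main account were present in every library. Cytosolic ribosomal protein genes, 79 by symbol, took 0.512%, 0.636% and 0.621% of the counts with a median of 30.7 TPM, and 67 of them share at least 20% of their runs of 50 bases with other genes. Rpl8, with 6.5% shared, stood at 1105, 1156 and 1094 TPM, against 0.110 to 0.214 TPM for Rpl24. Of 18 cholesterol genes 17 reached 1 TPM in each library, against 54.8% of all nuclear protein-coding genes. The sensor Insig1 stood at 360.2, 317 and 324 TPM. Fdps, of the same route, stood at 1.10, 0.297 and 0.519 TPM with 86.4% of its runs shared.

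Ttr, the carrier of thyroid hormone, stood at 5665, 9670 and 9713 TPM. Among markers of alpha, delta and PP cells it was the highest, above Gcg in each library. Of 8 liver markers 2 reached 1 TPM, against 54.8% of all nuclear protein-coding genes. These were Apoa2 (29.7, 43.6 and 47.3 TPM) and Tat (18.4, 19.2 and 19.6 TPM), while Alb stayed under 1 TPM. Of 5 somatostatin receptors Sstr3 led with 131, 114 and 114 TPM.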
